A study of Mus musculus with 28 samples.

Results

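The genes described here encode 10 proteins of mitochondrial fatty acid oxidation in mouse liver, namely *Cpt1a*, *Cpt2*, *Slc25a20*, *Acadm*, *Acadl*, *Acadvl*, *Hadha*, *Hadhb*, *Acaa2*, and *Decr1*. They were chosen by name, with earlier results of these data known. All 10 were found among the 49585 features of the deposited count table and among the 21583 genes tested. Liver RNA came from 28 C57BL/6JOlaHsd mice of 5 to 7 months, kept on standard chow and fasted for a few hours before collection. The mice formed 4 groups of 7, with wild type (WT) mice and SIRT6 transgenic (SIRT6-tg) littermates of each sex. All transgenic mice came from 1 line, so that effects of its insertion site and of SIRT6 cannot be told apart, and its promoter is not given in the sources used here. The p-values measure the spread between the 7 samples of a group.

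Fatty acids are burned in mitochondria in a fixed sequence. *Cpt1a* encodes the liver form of carnitine palmitoyltransferase 1, which joins long-chain acyl groups to carnitine at the outer membrane and is the controlled step of entry. *Slc25a20* encodes the carrier that takes acylcarnitine across the inner membrane, and *Cpt2* the transferase that returns the acyl group to coenzyme A. *Acadvl*, *Acadl*, and *Acadm* encode the acyl-CoA dehydrogenases for very long, long, and medium chains. *Hadha* and *Hadhb* encode the α and β subunits of the mitochondrial trifunctional protein, which completes the cycle for long chains, *Acaa2* a 3-ketoacyl-CoA thiolase, and *Decr1* the dienoyl-CoA reductase needed for unsaturated fatty acids. In liver the pathway feeds ketone body formation and supplies energy for glucose production during fasting, and many of its genes are known targets of the nuclear receptor PPARα.

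*Hadha* and *Hadhb* lie head to head on chromosome 5, so a shared stretch of DNA separates the starts of the genes for the 2 subunits of 1 enzyme complex. In Gencode vM21 on GRCm38, *Hadha* occupies chr5:30118304-30155162 on the minus strand and *Hadhb* chr5:30155248-30184593 on the plus strand. The 85 bases between their annotated exons, chr5:30155163-30155247, are shown because both genes were measured on either side of them. They are written on the plus strand with the letters GGGCGG in capitals.
Hadha to Hadhb: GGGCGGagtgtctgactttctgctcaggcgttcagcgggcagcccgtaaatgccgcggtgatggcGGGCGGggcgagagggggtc

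Of the 10 genes, 8 had a promoter window (250 bases before to 50 bases after the RefSeq start, GRCm38.p6), and *Acaa2* and *Decr1* were not matched. In these windows the share of G and C was between 50.7% and 70.3%, against a median of 52.7% over 32851 windows of the same length. AGGTCA, the half-site that many nuclear receptors bind, was found on either strand in 3 of the 8, compared with 16.3% of all windows. GGGCGG, a site of Sp1-type factors, was found in 6 of the 8, compared with 35.7% of all windows. The windows of *Hadha* and *Hadhb* overlap, and the *Hadha* match at chr5:30155163-30155168 is also counted for *Hadhb*. The direct repeat of AGGTCA with 1 base between the copies is the form that PPARα binds with its partner RXR. It was in 0 of the 8 and in 0.0396% of all windows. TCAAGGTCA was in 0 of the 8 (0.423% of all), TATAAA in 0 (13.6%), GCATGCGC in 1 (2.71%), CCGGAAGT in 2 (3.89%), and CCAAT in 1 (37.4%). Both a match and its absence describe the letters of these windows only. The stretches with AGGTCA are given in the direction of transcription, without annotated exons. They set *Cpt1a*, which did not pass the test of genotype in either sex, beside *Acadvl* and *Acadm*, whose levels rose in males. Capitals mark AGGTCA and GGGCGG on either strand and GCATGCGC.
Cpt1a, plus strand, chr19:3323051-3323284: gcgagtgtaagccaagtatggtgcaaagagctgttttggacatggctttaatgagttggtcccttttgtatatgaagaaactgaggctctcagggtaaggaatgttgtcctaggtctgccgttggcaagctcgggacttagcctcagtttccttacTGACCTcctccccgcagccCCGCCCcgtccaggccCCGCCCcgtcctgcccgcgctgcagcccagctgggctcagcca
Acadvl, minus strand, chr11:70015429-70015678: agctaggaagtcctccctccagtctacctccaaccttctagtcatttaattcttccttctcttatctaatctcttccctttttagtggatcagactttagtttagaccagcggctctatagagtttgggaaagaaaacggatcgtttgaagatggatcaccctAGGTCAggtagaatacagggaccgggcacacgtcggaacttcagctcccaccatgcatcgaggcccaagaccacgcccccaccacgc
Acadm, minus strand, chr3:153944644-153944893: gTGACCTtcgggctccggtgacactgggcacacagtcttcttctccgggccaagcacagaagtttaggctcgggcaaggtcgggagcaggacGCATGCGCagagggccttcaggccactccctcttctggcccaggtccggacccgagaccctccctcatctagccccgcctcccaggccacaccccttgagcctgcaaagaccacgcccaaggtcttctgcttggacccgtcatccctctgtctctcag

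Levels are given as CPM, the count of a gene relative to the total of its library, scaled between libraries by the trimmed mean of M-values (TMM). Genotypes were compared within each sex by the quasi-likelihood F-test of edgeR, and a gene is named as called where the Benjamini-Hochberg adjusted p was below 0.05. Total counts per library ranged from 18758863 to 35393069. *Sirt6* itself checked the labels, with 1.69 to 3.23 CPM in WT males and 198 to 358 CPM in SIRT6-tg males. In females it was 1.8 to 6.21 CPM in WT and 16.4 to 50.2 CPM in SIRT6-tg mice, so overexpression was much stronger in males (difference of the log2 effects 3.29 ± 0.35 SE, adjusted p = 6.96e-06). The tissue carried the markers of hepatocytes, with all 8 of those examined detected.

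The main finding was a rise of 9 of the 10 genes in SIRT6-tg males, by 1.31- to 1.44-fold. *Cpt1a* was the exception. Among all genes tested, 9.68% were called higher and 11.0% lower in SIRT6-tg males. The study had reported higher expression of fatty acid β-oxidation genes from these libraries. The 10 genes were chosen with earlier results of these data known, so the excess over that share is no independent evidence. The rise of the 9 genes depends on how libraries are scaled. With library size alone only *Cpt2* was called, with a median log2 change of 0.18 over the 10 genes in place of 0.46. The median of all genes moved with it, from 0.06 to -0.22. The median of the 10 genes lay 0.40 above that of all genes under either scaling. A change of scaling shifts all genes by about the same amount. This gap therefore stays by construction and is no check of the rise. The 10 genes together made up 0.300% to 0.354% of the raw counts in WT males (median 0.310%) and 0.327% to 0.380% in SIRT6-tg males (median 0.351%). The same share was 0.302% to 0.355% in WT females (median 0.318%) and 0.309% to 0.401% in SIRT6-tg females (median 0.356%), and with library size alone the median log2 change was 0.20 in females.

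**Figure D1:**
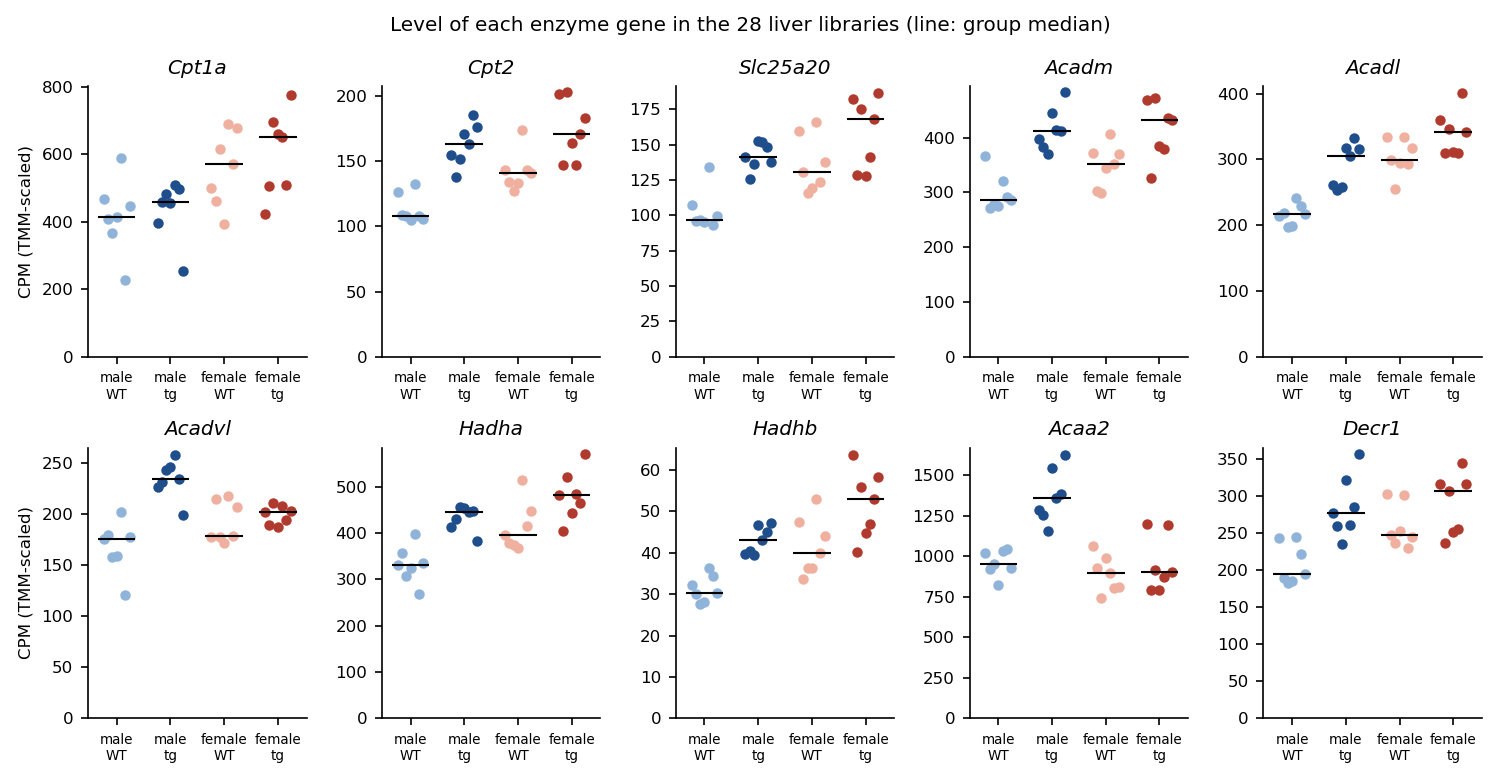
Level of each gene (CPM after TMM scaling, linear axis from 0) in the 7 libraries of each group, with a line at the group median and "tg" for SIRT6-tg. In males, the 2 genotypes do not overlap for *Cpt2*, *Acadm*, *Acadl*, *Hadhb*, and *Acaa2*, whereas the *Cpt1a* ranges lie over each other. The share of all genes tested without overlap is not given here, so the lack of overlap only describes these genes.

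Entry into mitochondria showed both patterns. *Cpt1a* ranged from 229 to 590.2 CPM in WT males (median 413) and from 255 to 511 CPM in SIRT6-tg males (median 459). The ranges overlapped almost fully, and no SIRT6-tg male lay above the highest WT male. The log2 change was 0.06 with a 95% interval of -0.28 to 0.41 (adjusted p = 0.851), which allows a rise of up to 1.33-fold or a fall to 0.822 of WT. Its mice differed more than for the other genes, with a coefficient of variation of 26.1% in WT males and 20.2% in SIRT6-tg males. The lowest libraries, WT male 6 and SIRT6-tg male 7, also held the lowest *Acadvl* and *Hadha* of their groups. In females *Cpt1a* ranged from 392 to 691 CPM in WT mice (median 573) and from 424 to 775 CPM in SIRT6-tg mice (median 651), a log2 change of 0.11 ± 0.17 (SE, adjusted p = 1).

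*Slc25a20*, the carnitine-acylcarnitine carrier, ranged from 93.4 to 134 CPM in WT males (median 97.0) and from 126 to 153 CPM in SIRT6-tg males (median 141). Only WT male 5 reached into the transgenic range, and 6 of 7 SIRT6-tg males lay above every WT male. The rise was 1.37-fold (log2 0.46 ± 0.10 SE, adjusted p = 0.00179). In females the carrier ranged from 116 to 166 CPM in WT mice (median 130.4) and from 128 to 187 CPM in SIRT6-tg mice (median 168), and the log2 change of 0.22 did not pass the test (edgeR adjusted p = 0.853).

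*Cpt2*, the inner membrane transferase, had the largest change of the 10 in males. It ranged from 105 to 133 CPM in WT males (median 108) and from 138 to 186 CPM in SIRT6-tg males (median 163), so that the lowest transgenic mouse lay above the highest WT mouse. The rise was 1.44-fold (95% interval 1.26 to 1.64, adjusted p = 9.67e-05). WT females ranged from 127 to 174 CPM (median 141) and SIRT6-tg females from 147 to 203 CPM (median 171), with 3 of 7 transgenic mice above all WT mice. Their log2 change was 0.29 ± 0.09 (SE) with an adjusted p of 0.44. The study displayed *Cpt2*, and *Etfa*, *Ech1*, and *Slc27a2* named further on, from these male libraries, so their direction here is no independent evidence.

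All 3 acyl-CoA dehydrogenases of the set rose in SIRT6-tg males. *Acadm*, for medium chains, ranged from 272 to 366 CPM in WT males (median 286) and from 371 to 484 CPM in SIRT6-tg males (median 412), with no overlap. *Acadl*, for long chains, ranged from 197 to 241 CPM in WT males (median 218) and from 254 to 332 CPM in SIRT6-tg males (median 305), again with no overlap. The changes were 1.39-fold for *Acadm* (log2 0.47 ± 0.09 SE, adjusted p = 0.000394) and 1.35-fold for *Acadl* (log2 0.43 ± 0.08 SE, adjusted p = 0.000349). *Acadvl*, for very long chains, ranged from 120.5 to 202 CPM in WT males (median 176) and from 199 to 258 CPM in SIRT6-tg males (median 234). The lowest transgenic mouse lay just below the highest WT mouse, and the rise was 1.40-fold (log2 0.48 ± 0.09 SE, adjusted p = 0.000206).

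In females, none of the 3 dehydrogenases was called. *Acadm* ranged from 299.9 to 406 CPM in WT females (median 352) and from 326 to 473 CPM in SIRT6-tg females (median 433), a log2 change of 0.24 (edgeR adjusted p = 0.657). For *Acadl* the WT females ranged from 255 to 334 CPM (median 299) and the SIRT6-tg females from 309 to 401 CPM (median 342), a log2 change of 0.16 (adjusted p = 0.927). *Acadvl* was 172 to 217 CPM in WT females (median 179) and 187 to 211 CPM in SIRT6-tg females (median 202), so that every transgenic female fell inside the WT range. Its log2 change in females was 0.05, with a 95% interval of -0.13 to 0.23.

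*Acadvl* counts carry a limit of their own. The gene lies at chr11:70010183-70015411 on the minus strand, and 42.9% of its exonic bases are shared on the other strand with *Dvl2*, a Wnt signalling gene. The strand setting of the counting is not given in the sources used here, so reads of the shared bases cannot be assigned with certainty. *Dvl2* was counted at a mean of 6.29 CPM in WT males and 6.30 CPM in SIRT6-tg males, and its log2 change was 0.00 ± 0.12 (SE).

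The subunits of the trifunctional protein rose together in males. *Hadha* ranged from 268 to 398 CPM in WT males (median 330.4) and from 383 to 457 CPM in SIRT6-tg males (median 447), with 6 of 7 transgenic mice above all WT mice. *Hadhb*, on the other side of the 85 bases shown above, ranged from 27.6 to 36.3 CPM in WT males (median 30.2) and from 39.4 to 47.3 CPM in SIRT6-tg males (median 43.1), with no overlap. The changes were 1.31-fold for *Hadha* (log2 0.39 ± 0.09 SE, adjusted p = 0.00256) and 1.38-fold for *Hadhb* (log2 0.46 ± 0.10 SE, adjusted p = 0.00164).

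In females, *Hadha* ranged from 369 to 516 CPM in WT mice (median 396) and from 404 to 570.2 CPM in SIRT6-tg mice (median 484). *Hadhb* ranged from 33.6 to 52.98 CPM in WT females (median 40.02) and from 40.2 to 63.6 CPM in SIRT6-tg females (median 53.04). The log2 changes were 0.22 for *Hadha* (adjusted p = 0.745) and 0.32 for *Hadhb* (adjusted p = 0.465), the latter being the largest of the 10 in females.

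Counts of *Hadha* exceeded those of *Hadhb* by a median of 11.1-fold in WT males, 10.4-fold in SIRT6-tg males, 10.2-fold in WT females, and 9.76-fold in SIRT6-tg females. These are ratios of counts, not of transcripts. Only uniquely mapped reads were counted, and 62.4% of the 50-base words of the longest coding *Hadhb* transcript also occur in transcripts of other genes, chiefly the processed pseudogene *Gm13910*. For *Hadha* the share was 0.655%, for *Acadm* 4.1%, and for *Acadvl* 24%, the last with *Dvl2*, and it was 0 for the other 6 genes. *Gm13910* held 9 to 39 counts per library, and how many *Hadhb* reads were left uncounted was not tested.

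At the end of the cycle, *Acaa2* was the most abundant of the 10. It ranged from 824 to 1044 CPM in WT males (median 951) and from 1159 to 1628 CPM in SIRT6-tg males (median 1360.3), with no overlap. The rise was 1.43-fold (log2 0.52 ± 0.11 SE, adjusted p = 0.000544). The female ranges lay over each other, from 743 to 1065 CPM in WT (median 900.2) and from 794 to 1199.8 CPM in SIRT6-tg mice (median 901), a log2 change of 0.10 ± 0.11 (SE, adjusted p = 1).

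*Decr1*, the auxiliary reductase, ranged from 183 to 245 CPM in WT males (median 194) and from 235 to 357 CPM in SIRT6-tg males (median 277). A single transgenic mouse fell inside the WT range, and the rise was 1.37-fold (log2 0.45 ± 0.11 SE, adjusted p = 0.00242). Females ranged from 230 to 303 CPM in WT (median 247) and from 237 to 345 CPM in SIRT6-tg mice (median 307), with a log2 change of 0.16 (adjusted p = 1).

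Over the 10 genes, 0 were called between SIRT6-tg and WT females, beside 0.0278% of all genes tested. With DESeq2 the count was also 0. At an unadjusted p under 0.05 it was 5, namely *Cpt2*, *Slc25a20*, *Acadm*, *Hadha*, and *Hadhb*, and 1212 of all 21583 genes passed at that level. All 10 estimates were above 0, with a median log2 change of 0.19 against 0.003 over all genes. In males, leaving out any of the 28 libraries kept the count at 9.

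**Figure D2:**
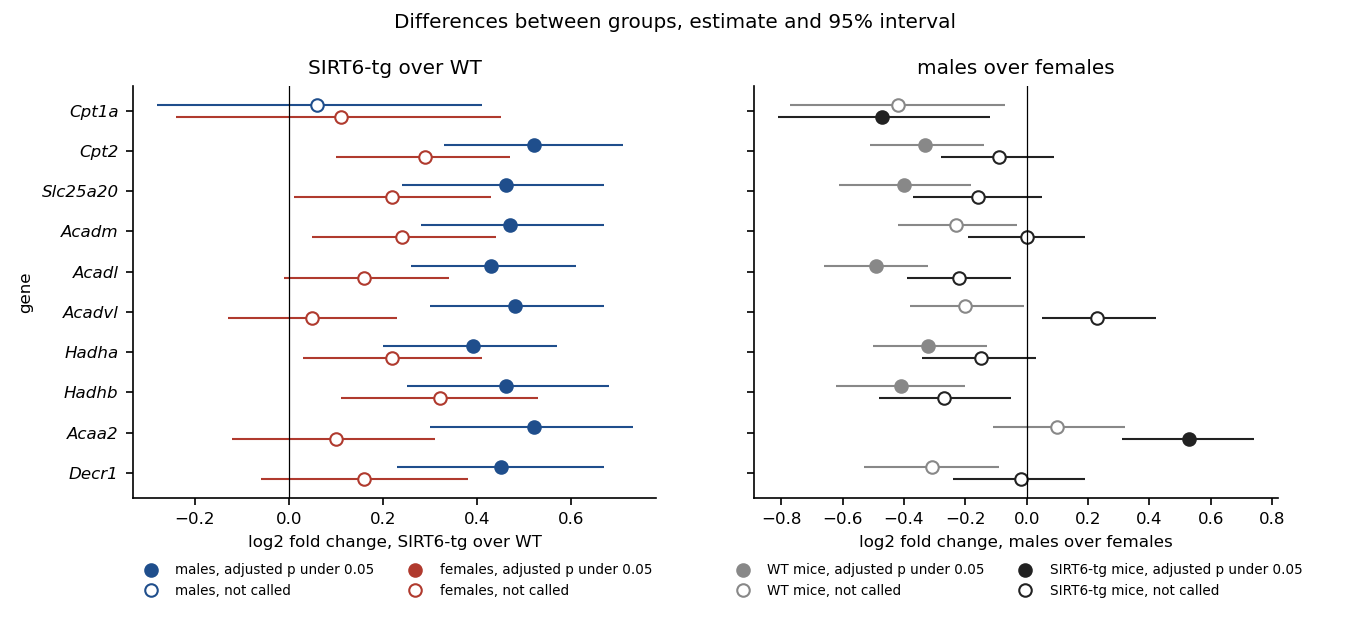
Log2 fold change of each gene with its 95% interval, for SIRT6-tg over WT in males and females (left) and for males over females in WT and SIRT6-tg mice (right), with filled points for an adjusted p under 0.05. In males, 9 of the 10 genotype effects are filled, in females 0, and the *Cpt1a* intervals are the widest.

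Whether the genotype effect differed between the sexes was tested as an interaction. It was called for 1 of the 10, *Acadvl*, whose effect in males exceeded that in females by 0.43 ± 0.13 on the log2 scale (SE, adjusted p = 0.0437), beside 1.2% of all genes called in that direction and 3.84% in the other. The call is fragile. With each library left out in turn the estimate stayed between 0.37 and 0.48 but was called in 7 of 28 cases, with adjusted p between 0.0182 and 0.107. It was lost without WT male 1, 2, 3, 4, 6, or 7, SIRT6-tg male 1 to 6, WT female 2, 5, or 7, or SIRT6-tg female 1, 2, 3, 4, 6, or 7. *Acaa2* had a similar difference of 0.42 ± 0.15 (SE, adjusted p = 0.0997). For the remaining 8 genes the differences were between -0.05 and 0.29, and their 95% intervals, apart from that of *Acadl* (0.03 to 0.51), held 0. No gene was called under any other scaling, and the direction of the set turned with some of them. The median difference of the 10 genes was 0.24 under TMM, 0.19 under RLE, and 0.16 under upper-quartile scaling. It was -0.06 with library size alone and -0.02 with scaling to mitochondrial content genes. With scaling to secreted hepatocyte proteins it was -0.21, and *Acadvl* was at -0.004.

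The sexes were also compared at the same genotype. In WT mice 5 of the 10 genes were lower in males, beside 5.71% of all genes, namely *Acadl*, *Hadhb*, *Slc25a20*, *Cpt2*, and *Hadha*. *Acadl* differed most, at 0.712 of the female level (log2 -0.49 ± 0.08 SE, adjusted p = 0.000162), and the 7 WT males all lay below the 7 WT females. The others were at 0.753 (*Hadhb*, adjusted p = 0.00815), 0.759 (*Slc25a20*, adjusted p = 0.0101), 0.797 (*Cpt2*, adjusted p = 0.0164), and 0.802 of it (*Hadha*, adjusted p = 0.0188). *Acaa2* was the gene of the set with an estimate above 0 (log2 0.10, adjusted p = 0.597).

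This comparison also leaned on scaling and on single libraries. With library size alone, *Acadl* was lower and *Acaa2* higher in males, and the other 4 calls were lost. With scaling to the secreted hepatocyte proteins all 5 calls were lost and *Acaa2* was higher in males. Without WT female 5, which had the highest level of 7 of the 10 genes in its group, the calls of *Cpt2* and *Hadha* were lost (adjusted p = 0.066 and 0.0832) and 3 remained. *Hadha* was also lost without WT male 3 (adjusted p = 0.0614).

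Markers of other cells differed between WT males and WT females too. Among all 21583 genes tested, 1437 were called higher and 1232 lower in WT males. Of 9 T and B cell markers 6 were higher in males, with sums of 16.4 to 38.7 CPM against 7.62 to 19.5 CPM, and of 9 macrophage and dendritic markers 2 were higher, with sums of 715 to 2300 CPM against 526 to 1100 CPM. Also higher in males were 1 of 10 endothelial and stellate, 2 of 4 adipose, and 2 of 7 blood and pancreas markers. Of 15 secreted hepatocyte proteins 6 were lower in males, *Alb* among them, and the hepatocyte markers summed to 96600 to 135000 CPM in males and 148000 to 188000 CPM in females. The part of these shifts in the lower levels of the 5 genes was not tested.

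Between SIRT6-tg males and SIRT6-tg females, 2 of the 10 genes were called. *Acaa2* was 1.44-fold higher in males (log2 0.53 ± 0.11 SE, adjusted p = 0.000538), with 6 of 7 males above every female. *Cpt1a* was lower, at 0.724 of the female level (log2 -0.47 ± 0.17 SE, adjusted p = 0.0445), a call that was lost in 11 of 28 cases when a library was left out. These were WT male 1, 2, or 3, SIRT6-tg male 1, 2, 4, or 7, and SIRT6-tg female 3, 4, 5, or 7, and the adjusted p then reached 0.113. With the libraries scaled to mitochondrial content genes, 9 of the 10 genes differed, 8 of them lower in males. Under that scaling 6721 of all 21583 genes were called, 5676 of them lower in males, and the median of all genes was -0.32. Under TMM, 12.9% of all genes were called higher and 10.2% lower in SIRT6-tg males than in SIRT6-tg females. The median log2 difference of the 10 genes between males and females was -0.32 in WT and -0.12 in SIRT6-tg mice, and with library size alone it was -0.13 and -0.22, so which genotype had the larger one depended on scaling. The comparisons of sexes and of genotypes share the same 28 libraries.

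Levels between genes were compared per kilobase of exon. *Acaa2* was highest in each group, with a median of 627 RPKM (the CPM divided by exonic length in kilobases) in WT males, 897 in SIRT6-tg males, 594 in WT females, and 594 in SIRT6-tg females. Its lowest library lay above the highest of every other gene. *Acadl* was next, with medians from 109 RPKM in WT males to 170.3 in SIRT6-tg females, and *Acadm* the third, and these neighbours did not overlap. From *Acadm* down to *Hadha*, each gene overlapped the next one in the order of medians. Genes further apart in that order could be separate, as in SIRT6-tg males, where *Acadvl* (73.9 to 96.1 RPKM), *Decr1* (60.5 to 92.0), and *Cpt2* (57.7 to 77.7) lay above *Hadha* (43.9 to 52.3). *Slc25a20* (medians 20.03 to 34.7 RPKM) and *Hadhb* (4.59 to 8.04 RPKM) were lowest.

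The order depends on the length that is used. With the longest coding transcript in place of all annotated exons, *Acaa2* stayed first and *Hadhb* last in all 4 groups. *Acadm* then came before *Acadl*, and *Cpt2* fell to rank 9. Neither length allows for *Hadhb* reads left uncounted because their sequence also occurs in other genes, and how many these were was not tested. *Acaa2* lies at chr18:74779197-74806208 on the plus strand.

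To see which genes moved together, the log2 CPM of each gene was centred over the 28 libraries and the root mean square difference was taken for each of the 45 pairs. The closest pair was *Cpt2* and *Acadm* at 0.0991, followed by *Acadm* and *Decr1* at 0.107 and by *Slc25a20* and *Hadhb* at 0.112. *Cpt1a* and *Acaa2* formed the most distant pair at 0.603. *Cpt1a* was nearest to *Hadha*, at 0.282, and *Acaa2* to *Acadm*, at 0.263. The 7 genes other than *Cpt1a*, *Acaa2*, and *Acadvl* were each within 0.132 of their nearest neighbour, and *Acadvl* was 0.169 from *Hadha*. These distances hold differences between groups as well as between mice of a group, and they are descriptions without a test.

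**Figure D3:**
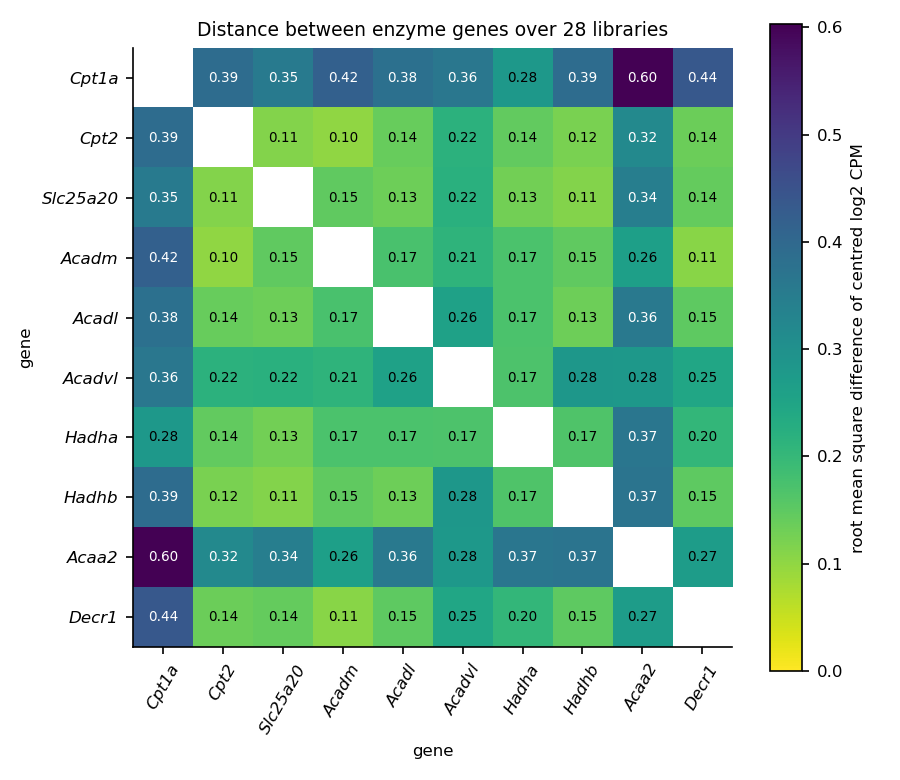
Root mean square difference of centred log2 CPM over the 28 libraries for each of the 45 pairs of genes, printed in the cells, with darker cells for greater distance. The rows of *Cpt1a* and *Acaa2* stand out as dark, and their shared cell holds the highest value, 0.603.

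The proportion of *Cpt1a* to the rest of the set is given without a test. Its counts were 2.35-fold the geometric mean of the other 9 genes in WT males (median, range 1.29 to 2.73) and 1.85-fold in SIRT6-tg males (range 0.941 to 2.04), and these ranges overlapped widely. In females the medians were 2.61 in WT and 2.5 in SIRT6-tg mice, again with overlapping ranges. The ratio of *Cpt1a* to *Cpt2*, the outer and inner transferases, had medians of 3.76, 2.67, 3.97, and 3.44 in WT males, SIRT6-tg males, WT females, and SIRT6-tg females. Such ratios within a library do not depend on scaling between libraries.

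*Acaa2* and *Hadhb*, thiolase proteins of different enzymes, differed between the sexes in their ratio. Counts of *Acaa2* were 28.4- to 34.5-fold those of *Hadhb* in WT males and 29.4- to 34.4-fold in SIRT6-tg males. In females they were 17- to 27.6-fold in WT and 15.4- to 22.5-fold in SIRT6-tg mice, so that every male lay above every female. This ratio was not tested. The share of other gene pairs that separate the sexes is not given here, so the separation only describes these genes. The limit of the *Hadhb* counts given above also applies to it.

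The set was also compared with 9861 genes that had a mean normalised count of at least 100. All genes of the related lists and marker lists used here were left out of this comparison. The 3 whose pattern over the 28 libraries lay nearest to the mean of the set were *Chp1*, *Sfxn2*, and *Gatc*. Their root mean square differences were 0.101, 0.103, and 0.107, where the mean of the set itself varied by 0.223. *Chp1* encodes a calcineurin-like calcium-binding protein, *Sfxn2* a mitochondrial sideroflexin, and *Gatc* a subunit of the mitochondrial glutamyl-tRNA amidotransferase. In males they rose by 1.24-, 1.32-, and 1.28-fold (edgeR adjusted p = 0.00966, 8e-05, and 0.00087). They were chosen for likeness over these same libraries, so this rise is tied to the choice and is no independent result.

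The wider pathway was examined with lists of related genes, all under TMM scaling. With library size alone their counts in males fell to between 0 and 2 higher per list, and the median of the regulators turned to -0.04. With scaling to the secreted hepatocyte proteins the median of the acyl-CoA and carnitine list turned to -0.01 and that of the regulators to -0.07. Of 14 other genes of mitochondrial β-oxidation, 12 rose in SIRT6-tg males and 0 fell, with a median log2 change of 0.46 against 0.06 over all genes. *Ech1*, an auxiliary isomerase, rose by 1.59-fold (367 ± 53.4 against 231 ± 24.02 CPM, mean ± SD, n = 7 each, edgeR adjusted p = 5.14e-05). *Acad11*, an acyl-CoA dehydrogenase, rose by 1.38-fold (adjusted p = 0.000643). *Etfa* and *Etfdh*, which pass electrons from the dehydrogenases to the respiratory chain, rose by 1.40-fold and 1.37-fold (adjusted p = 0.000891 and 0.00107). In females 0 of the 14 were called, and the median was 0.13.

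Of 18 genes that supply acyl-CoA and carnitine, 8 rose and 0 fell in males, with a median of 0.30. *Fabp1*, the liver fatty acid-binding protein, went from 2729 ± 447 to 4808 ± 920 CPM (mean ± SD, n = 7 each), a rise of 1.76-fold (edgeR adjusted p = 6.84e-05). *Slc27a2* and *Slc27a5*, acyl-CoA synthetases of the fatty acid transport family, rose by 1.48-fold and 1.36-fold (adjusted p = 0.000328 and 0.00298). *Acsl1*, a long-chain acyl-CoA synthetase, rose by 1.67-fold (adjusted p = 0.0033). *Slc27a5* was the 1 gene of this list with a called difference between the sexes (log2 0.55 ± 0.15 SE, adjusted p = 0.0309).

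Peroxisomal β-oxidation, which shortens very long and branched chains, had 6 of 16 genes higher and 0 lower in SIRT6-tg males (median 0.36). They included *Acaa1b*, a peroxisomal thiolase (1.86-fold, adjusted p = 0.000104), *Hsd17b4*, the D-bifunctional protein (1.32-fold, adjusted p = 0.000887), *Acox2*, a branched-chain oxidase (1.37-fold, adjusted p = 0.00158), and *Pecr*, an enoyl-CoA reductase (1.47-fold, adjusted p = 0.00306). *Acaa1b* is a near copy of *Acaa1a*, so the division of reads between them is uncertain.

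Of 17 PPARα target genes outside β-oxidation, 3 rose and 1 fell in males (median 0.40). Those that rose included *Creb3l3*, a hepatic transcription factor of fasting, by 1.33-fold (adjusted p = 0.0099), and *Angptl4*, an inhibitor of lipoprotein lipase, by 1.49-fold (adjusted p = 0.0467). *Ucp2*, a mitochondrial carrier that is abundant in immune cells, fell to 0.45 of WT (adjusted p = 5.28e-06), and its effect differed between the sexes (log2 -1.26 ± 0.23 SE, adjusted p = 0.00147).

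Of 18 regulators of fatty acid oxidation, 5 rose and 0 fell (median 0.23). *Sirt3*, the main mitochondrial deacetylase, went from 56.5 ± 7.25 to 72.0 ± 4.71 CPM in males (mean ± SD, n = 7 each), a rise of 1.27-fold (edgeR adjusted p = 0.00148). *Pparg*, a lipid-sensing receptor, rose by 1.56-fold (adjusted p = 0.0031), *Tfam*, a mitochondrial DNA transcription factor, by 1.28-fold (adjusted p = 0.0338), and *Ppargc1b*, a coactivator, by 1.31-fold (adjusted p = 0.0467). *Pparg* also differed between the sexes in its effect (log2 0.78 ± 0.22 SE, adjusted p = 0.0324). The transcript of *Ppara* did not pass the test, at 90.8 ± 26.1 CPM in WT and 118 ± 20.2 CPM in SIRT6-tg males (mean ± SD, n = 7 each, edgeR adjusted p = 0.237). *Ppargc1a*, a coactivator induced by fasting, had a log2 change of -0.03 in males (adjusted p = 0.946) and *Esrra*, an estrogen-related receptor, one of 0.27 (adjusted p = 0.175). *Ppargc1a* was lower in males than in females, at 0.509 of the female level in WT mice (adjusted p = 0.00055) and 0.566 in SIRT6-tg mice (adjusted p = 0.00195).

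**Figure D4:**
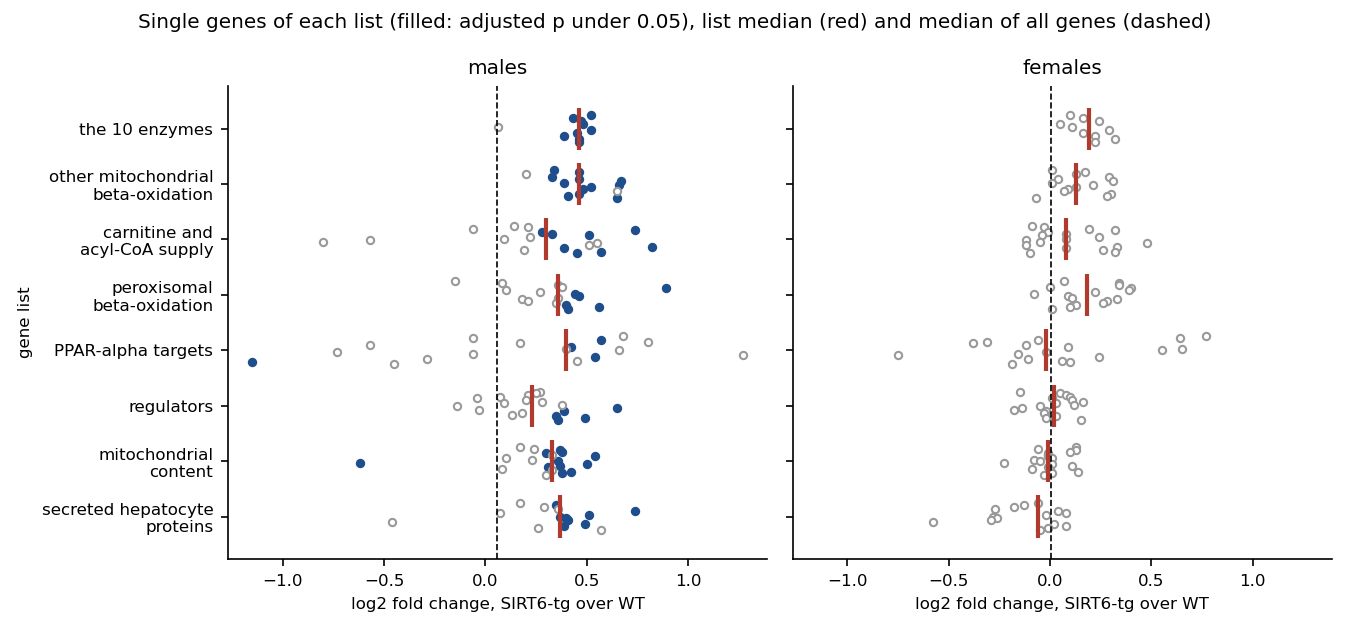
Log2 fold change (SIRT6-tg over WT, horizontal axis) of each gene of 8 lists in males (left) and females (right), filled where the adjusted p is under 0.05, with the list median in red and the median of all genes as a dashed line. In males the list medians lie between 0.23 and 0.46, and in females between -0.06 and 0.19 with no filled point.

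The lists of general mitochondrial content and of secreted hepatocyte proteins shifted in the same direction in males by their medians. Of 19 genes of general mitochondrial content, 10 were higher and 1 lower in SIRT6-tg males, with a median log2 change of 0.33. *Immt*, a cristae organiser, rose by 1.30-fold (adjusted p = 0.000451), *Vdac1*, the outer membrane channel, by 1.30-fold (adjusted p = 0.000544), *Hspd1*, a chaperone, by 1.29-fold (adjusted p = 0.00107), and *Phb2*, a prohibitin, by 1.45-fold (adjusted p = 0.00358). *Slc25a4*, a nucleotide carrier found mainly in muscle, fell to 0.65 of WT (adjusted p = 0.0325). *Vdac1* differed between the sexes (log2 0.37 ± 0.11 SE, adjusted p = 0.0433).

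Of 15 secreted hepatocyte proteins, 8 were higher and 0 lower in SIRT6-tg males, with a median of 0.37. They included *Serpinc1*, encoding antithrombin (1.31-fold, adjusted p = 0.000154), *Rbp4*, the retinol carrier (1.40-fold, adjusted p = 0.0067), *Fgb*, a fibrinogen chain (1.32-fold, adjusted p = 0.00975), and *Apoa2*, an apolipoprotein of HDL (1.67-fold, adjusted p = 0.0113). The fibrinogen genes *Fgb*, *Fga*, and *Fgg* also differed between the sexes (log2 0.66, 0.65, and 0.70, adjusted p = 0.0106, 0.0191, and 0.0134). When all libraries were scaled to the mitochondrial content genes, 1 of the 10 fatty acid oxidation genes was called in males (*Acaa2*) and the median log2 change was 0.19. When they were scaled to the secreted hepatocyte proteins the count was 0 and the median 0.14.

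**Figure D5:**
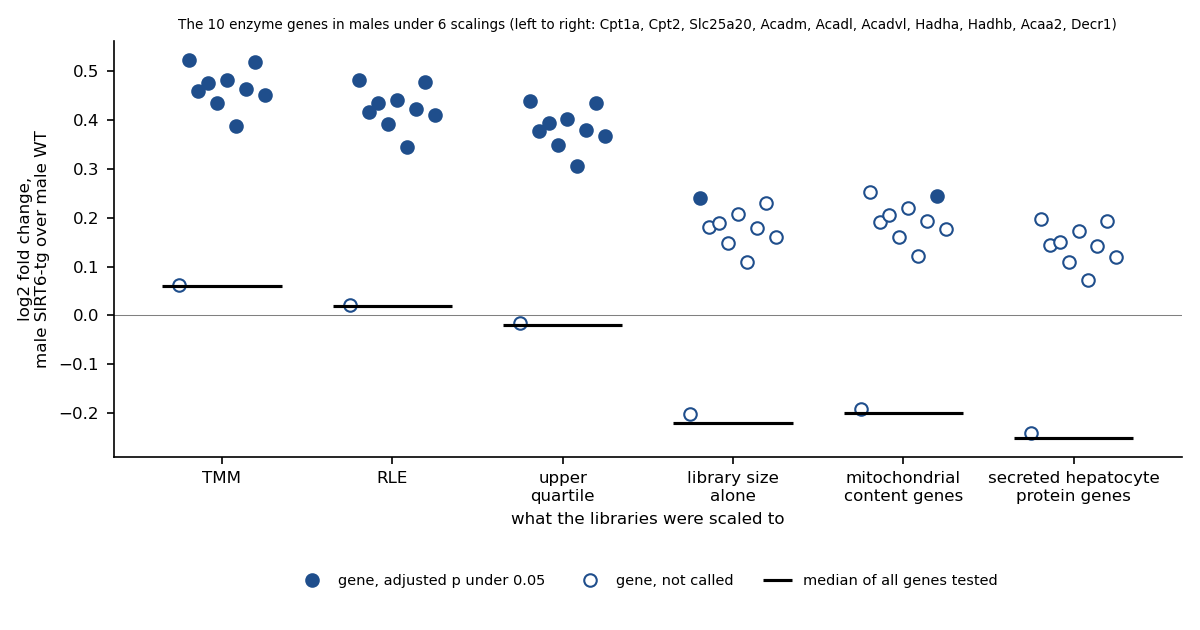
Log2 fold change of the 10 genes in males (SIRT6-tg over WT, vertical axis) under 6 ways of scaling the libraries, filled where the adjusted p is under 0.05, with a black line at the median of all genes tested. The median of the genes lies 0.39 to 0.40 above that line in each, by construction, because a scaling shifts all genes together. The number of filled points falls from 9 to 1, 1, and 0 in the last 3 scalings.

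Markers of other cell types moved with genotype in males as well. Of 9 macrophage and dendritic markers all 9 were lower in SIRT6-tg males, and of 9 T and B cell markers all 9. The summed level of the former was 715 to 2300 CPM in WT males and 381 to 662 CPM in SIRT6-tg males, and that of the latter 16.4 to 38.7 and 6.33 to 10.7 CPM. In females no marker of these lists was called, and the sums overlapped. Of 10 endothelial and stellate markers 6 were lower in SIRT6-tg males, with sums of 305 to 380 CPM in WT and 239 to 297 CPM in SIRT6-tg mice.

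The 8 hepatocyte markers summed to 96600 to 135000 CPM in WT males and 122000 to 167000 CPM in SIRT6-tg males, and 2 of them, *Alb* and *Cyp2e1*, were higher. Markers of bile duct (0 of 4 called), adipose tissue (1 of 4 lower), and blood and pancreas (2 higher and 1 lower of 7) completed the check, and no listed marker was at 0 in all libraries. In these bulk samples, fewer cells of a type and less RNA per cell cannot be told apart, and the part of these shifts in the rise of the fatty acid oxidation genes was not tested.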

How the data were processed

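The authors aligned single-end reads of mouse liver RNA (NEBNext Ultra libraries) to mm10 with STAR 2.5.0a and counted uniquely mapped reads on Gencode vM12 genes with HTSeq-count, and they deposited raw counts per gene. Symbols and coordinates came from Gencode vM21 (GRCm38), and promoter sequences from RefSeq (GRCm38.p6). Samples were grouped by the labels' sex and genotype. Genes with a mean of at least 0.5 counts after scaling by DESeq2 size factors were kept (21583 of 49585). Counts were scaled by TMM and fitted with edgeR 4.0.16 in R 4.3.3, with 28 libraries in 1 model of 4 groups, no covariates, and Benjamini-Hochberg adjustment over all genes. DESeq2 1.42.0 (the authors' tool) served as an alternative. On simulated data with 21583 genes for the male comparison, 100 genes were changed by 0.45 log2 units and 100 by 1.00. Of these, 28% and 90% were recovered, and 4.84% of calls were false. Far more genes were called in the real male comparison (4466), so these shares are not the power for the 10 genes. The members and lists were chosen with earlier results of these data known. Besides the 10 genes, the text names from each list up to 4 genes with the lowest adjusted p per direction in males. It also names up to 3 per list whose effect differed between the sexes, 4 regulators, and the 3 most similar genes outside the lists. Of the genes this rule names, 1 is not reported here. *Dvl2*, *Gm13910*, and single cell markers were added after seeing the data. The number of unmapped columns was 0. No libraries within a group agreed within sampling noise (chi-square per gene of at least 13.3). RPKM used all annotated exonic bases. A count of 0 allows up to 3 counts, and such limits cover counting error only.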

Additional observations from a re-analysis of the deposited data

Results flagged for a closer look

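In 44 groups of 7 libraries (the 10 genes and *Sirt6*), 4 had a library far from the others by Dixon's test (95% critical value), which chance gives in about 1 of 20 groups. *Cpt2* reached 174 CPM in WT female 5 and *Slc25a20* 134 CPM in WT male 5, and these libraries had the highest level of 7 and 8 of the 10 genes in their groups. *Sirt6* was 1.69 CPM in WT male 6, the lowest, and 6.21 CPM in WT female 1, the highest.

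Males and females differed in the effect of genotype on *Acadvl* (log2 0.43), *Slc27a5* (0.55), *Ucp2* (-1.26), *Pparg* (0.78), *Vdac1* (0.37), *Fgb* (0.66), *Fga* (0.65), and *Fgg* (0.70), and on *Sirt6* itself (3.29), each by the interaction test of edgeR with the adjusted p-value given above. For the first 8 genes, this difference goes with a transgene level that was itself 9.31-fold higher in SIRT6-tg males than in SIRT6-tg females, and sex and transgene level cannot be told apart.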

How the results depend on the processing

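Between genotypes, the count of called genes in males (9) stayed at 9 under RLE and upper-quartile scaling, both other filters, DESeq2, the males fitted alone, the removal of WT male 6 and SIRT6-tg male 7 together (chosen after seeing the data), and each library left out (9 to 9). It fell to 1 with library size alone, 1 with scaling to mitochondrial content genes, and 0 with scaling to secreted hepatocyte proteins, where 4.89%, 6.2%, and 3.84% of all calls in males were higher against 46.8% in the main result. In females the count was 0 under every alternative, each library left out included (0 to 0). The count of differences between the sexes (1) fell to 0 under RLE, upper quartile, library size alone, both gene-list scalings, and no filter, and was 0 to 1 with a library left out. When scaled to secreted hepatocyte proteins the median difference of the 10 genes turned from 0.24 to -0.21 and that of *Acadvl* to -0.004, and with library size alone and mitochondrial scaling the median was -0.06 and -0.02. The count in WT mice of different sex (5), all lower in males, fell to 2 with library size alone (1 higher, 1 lower) and to 1 with hepatocyte scaling, which was higher in males, was 6 with upper-quartile and mitochondrial scaling, and was 3 to 7 with a library left out. That in SIRT6-tg mice (2) was 4 under RLE, upper quartile, hepatocyte scaling, filterByExpr, and DESeq2, and 5 with library size alone. It was 1 without a filter and 1 to 3 with a library left out. With mitochondrial scaling it was 9, where *Acadm* turned to -0.28 and the calls over all genes went from 4987 to 6721. Apart from the scalings, whose construction shifts all genes together, the cause was not tested.

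Same-numbered mice correlated between -0.64 and 0.53 in their deviations. Between WT and SIRT6-tg males the median was 0.205 for same-numbered and -0.017 for other mice, and between WT and SIRT6-tg females 0.052 and -0.044. With 7 same-numbered pairs per comparison, whether the numbers pair mice cannot be settled. With the replicate block the counts were 9, 0, 1, 6, and 1 in the order above, and calls over all genes in males went from 4466 to 4207.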
